A study of Homo sapiens with 6 samples.

Results

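The genes described here encode 36 human aminoacyl-tRNA synthetases, the enzymes that join each amino acid to its transfer RNA. They were taken by gene name: 20 cytosolic enzymes, and 16 mitochondrial enzymes whose symbols end in 2. They are 36 of the 58233 genes listed, and all 36 are among the 12853 genes tested, which had a mean of at least 1 FPKM (fragments per kilobase of transcript, normalised to the mapped total). Every library came from cells labelled Huh7, a hepatocellular carcinoma line. One group of 3 libraries was from cells transfected with a plasmid overexpressing TP53TG1, a p53-induced long noncoding RNA. The other group of 3 was from cells given the control plasmid, which the series calls an empty vector. Both groups therefore carry a transfected plasmid, and no label gives the hours between transfection and harvest. Nothing in the labels tells separate cultures from repeat libraries, so p-values measure the spread between libraries, which can be technical.

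TP53TG1 was the check of the labels. It had 69.8, 134 and 70.5 FPKM in TP53TG1 replicates 1 to 3, against 10.6, 5.25 and 6.15 FPKM in control replicates 1 to 3. All 3 TP53TG1 libraries were above all 3 controls, with a log2 fold change of 3.46 (SE 0.381). Its adjusted p was 0.0573 in limma without a replicate block and 8.97e-22 in the fit blocked by replicate number. The blocked fit takes its spread from genes of similar level, so its p-values do not measure a gene's own spread. The steps between low FPKM values of short genes put the depth at about 10900000 to 14800000 fragments in the TP53TG1 libraries and 13000000 to 14700000 in the controls. At that depth the synthetase with the fewest fragments was PARS2 in TP53TG1 replicate 1, with about 36, and GARS, with the most in that library, had about 3826. The 2 libraries numbered 1 stood apart: the mean length of their coding transcripts was 1228 nt (TP53TG1) and 1311 nt (control), against 1652 to 1710 nt in the other 4. Genes as a whole had a median log2 fold change of -0.35 on the deposited values, and the median-of-ratios scaling factor was lowest for TP53TG1 replicate 1, at 0.615, where the remaining 5 ran between 0.994 and 1.19. Fold changes of single genes below are therefore followed by the value relative to that median (written "relative"), and "scaled FPKM" means FPKM divided by the library's factor.

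The liver label was checked against marker genes. ALB, which encodes albumin, had 0.56 to 1.22 FPKM in the TP53TG1 libraries and 0.53 to 1.1 FPKM in the controls, and TTR, which encodes transthyretin, was listed at 0 in 4 of the 6 libraries. Of 10 hepatocyte and liver cancer markers, 6 averaged at least 1 FPKM over the 6 libraries. The 10 summed to 26.6 to 64.5 FPKM in the TP53TG1 libraries and 60.5 to 77.5 FPKM in the controls. All 5 intestinal epithelial markers averaged at least 1 FPKM, and summed to 92.1 to 157 FPKM in the TP53TG1 libraries and 180 to 347 FPKM in the controls. Of 3 leukocyte markers, 1 averaged at least 1 FPKM, and the 3 summed to 0.58 to 1.97 FPKM in the TP53TG1 libraries and 0.53 to 2.68 FPKM in the controls. All 3 fibroblast markers averaged at least 1 FPKM, and summed to 105 to 123 FPKM in the TP53TG1 libraries and 113 to 145 FPKM in the controls, most of it VIM. COL1A1, a collagen gene among them, had 10.9, 3.05 and 3.19 FPKM with TP53TG1, against 2.79, 1.81 and 2.85 FPKM in the controls. It was higher in every TP53TG1 library, also after scaling, but not on coding transcripts of at least 1000 nt alone. VIM averaged 104 FPKM with TP53TG1 against 127 FPKM with control plasmid, and the groups of VIM and COL1A2 overlapped. Among the intestinal markers, VIL1 and CDH17 were lower in every TP53TG1 library, also after scaling. KRT20, LGALS4 and CDX2 overlapped after scaling. The part of these marker differences in the synthetase values was not tested.

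A synthetase activates its amino acid with ATP and transfers it to the matching tRNA, which then carries it to the ribosome. Cytosolic and mitochondrial ribosomes use separate tRNAs, and most amino acids have a separate nuclear gene for each compartment, although GARS and KARS each supply both. Many cytosolic synthetase genes are known targets of ATF4, the transcription factor made when the integrated stress response slows translation, while the mitochondrial genes are not usually counted among them. ATF4 binds, with C/EBP partners, a C/EBP-ATF response element in promoters.

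Promoter sequences are shown because the cytosolic genes are grouped below by whether ATF4 is known to act on them. The element was searched as TGATGNAA on either strand, its other strand reading TTNCATCA, in RefSeq windows (build GRCh38.p14) of 250 bases before to 50 after each gene's start. A window was found for 30 of 36 members, LARS, VARS, YARS, DARS, AARS2 and VARS2 being without one. The letters were present in 7 of 10 windows of cytosolic genes counted as ATF4-responsive, in 0 of 6 windows of the other cytosolic genes and in 1 of 14 mitochondrial windows. Of all 35116 windows in the table, 1270 (3.62%) held them. In 6 of the 8 member matches the word was TGATGCAA. In the stretches below, read along each gene's own strand, the capitals mark the match.
AARS, chr16:70289666-70289713, minus strand: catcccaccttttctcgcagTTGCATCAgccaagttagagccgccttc
CARS, chr11:3057398-3057445, minus strand: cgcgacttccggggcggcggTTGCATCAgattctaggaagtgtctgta
GARS, chr7:30594825-30594872, plus strand: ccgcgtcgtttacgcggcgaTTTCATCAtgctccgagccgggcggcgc
IARS, chr9:92293683-92293730, minus strand: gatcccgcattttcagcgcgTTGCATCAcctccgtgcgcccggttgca
MARS, chr12:57488044-57488091, plus strand: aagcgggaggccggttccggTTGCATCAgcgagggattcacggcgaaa
NARS, chr18:57621807-57621842, minus strand: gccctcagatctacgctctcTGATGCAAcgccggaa
TARS, chr5:33440947-33440994, plus strand: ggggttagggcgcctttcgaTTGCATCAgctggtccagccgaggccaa
YARS2, chr12:32756067-32756114, minus strand: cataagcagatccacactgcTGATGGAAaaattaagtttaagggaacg
In 6 of the 7 cytosolic genes the match read on the strand opposite to the gene, with NARS the exception. The first base of the match stood at -33 from the start in GARS, -13 in IARS, -4 in MARS, -2 in CARS, 3 in TARS and 15 in NARS, and at -187 in AARS and -197 in YARS2. Such a match describes letters in a window and does not show binding.

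Transfection with TP53TG1 left every synthetase short of the test's threshold. With limma on log2(FPKM + 1) and Benjamini-Hochberg adjustment over all genes tested, no member passed an adjusted p of 0.05, and their adjusted p ran from 0.748 to 0.816. One gene of 12853 was called, in the higher direction (0.00778%). At an unadjusted p under 0.05, 4 of 20 cytosolic members (WARS, SARS, AARS and IARS) and 0 of 16 mitochondrial members had lower values, against 1.91% of all genes, and none had higher values, against 0.436%. The cytosolic count was 0 after median-of-ratios scaling (background 0.451%). Leaving out 1 library, it was 2 without TP53TG1 replicate 1 (2.57%), 10 without replicate 2 (4.93%) and 0 without replicate 3 (0.775%), and 6, 1 and 0 without control replicates 1, 2 and 3 (1.61%, 0.735% and 0.814%). The 3 TP53TG1 libraries lay below all 3 controls for 5 cytosolic members (GARS, SARS, WARS, EPRS and LARS) and 3 mitochondrial members (NARS2, TARS2 and VARS2), which are 8 of 36 members, against 13.3% of all genes; no member lay above all 3 controls, against 0.428%. After median-of-ratios scaling no member was called (0.0156% of all genes, each higher), WARS alone lay below the controls in all 3 libraries (background 2.18%), and QARS alone lay above them (background 1.89%). In the fit blocked by replicate number, 117 genes (0.91%) were called lower and 75 (0.584%) higher, and again no member was; the unadjusted count then was 10 cytosolic and 1 mitochondrial members lower, against 9.65% of all genes lower and 1.08% higher. Block and scaling together called 0.0467% of all genes, each higher, and no member. At an unadjusted p under 0.05, 1 cytosolic member (IARS) was then lower, against 2.26% of all genes. In the same fit 1 mitochondrial member (YARS2) was higher, against 393 of 12853 genes. Across 716 fits of a member under 20 settings, the lowest adjusted p was 0.143, for AARS with the block.

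Relative to the median of all genes, the 2 compartments and the 2 cytosolic subsets stood at different places. The 20 cytosolic genes had a median relative log2 fold change of -0.26, with 12 below the median of all genes and 8 above. The 16 mitochondrial genes had -0.06, with 10 below and 6 above. Within the cytosolic set, 12 of the 13 genes counted as ATF4-responsive were below (median -0.40), VARS being the exception, and all 7 other cytosolic genes were above it (median 0.13). The place of the other cytosolic genes depended on the genes and transcripts kept. With no filter on low values the median of all genes was -0.13 and all 7 were below it (relative median -0.09), as were all 20 cytosolic and 15 of 16 mitochondrial genes. With the transcript of highest mean alone, 3 of the 7 were below (relative median 0.0033), and without TP53TG1 replicate 3 also 3 (0.03). The cytosolic genes split less by catalytic fold, with medians of -0.26 for 10 class I enzymes and -0.16 for 10 class II enzymes. The 8 enzymes of the multi-synthetase complex, a cytosolic assembly held by scaffold proteins, had a median of -0.09 with 4 below and 4 above. No test was made of these list medians, because the lists, the ATF4-responsive one among them, were chosen with earlier results of these data known.

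**Figure D1:**
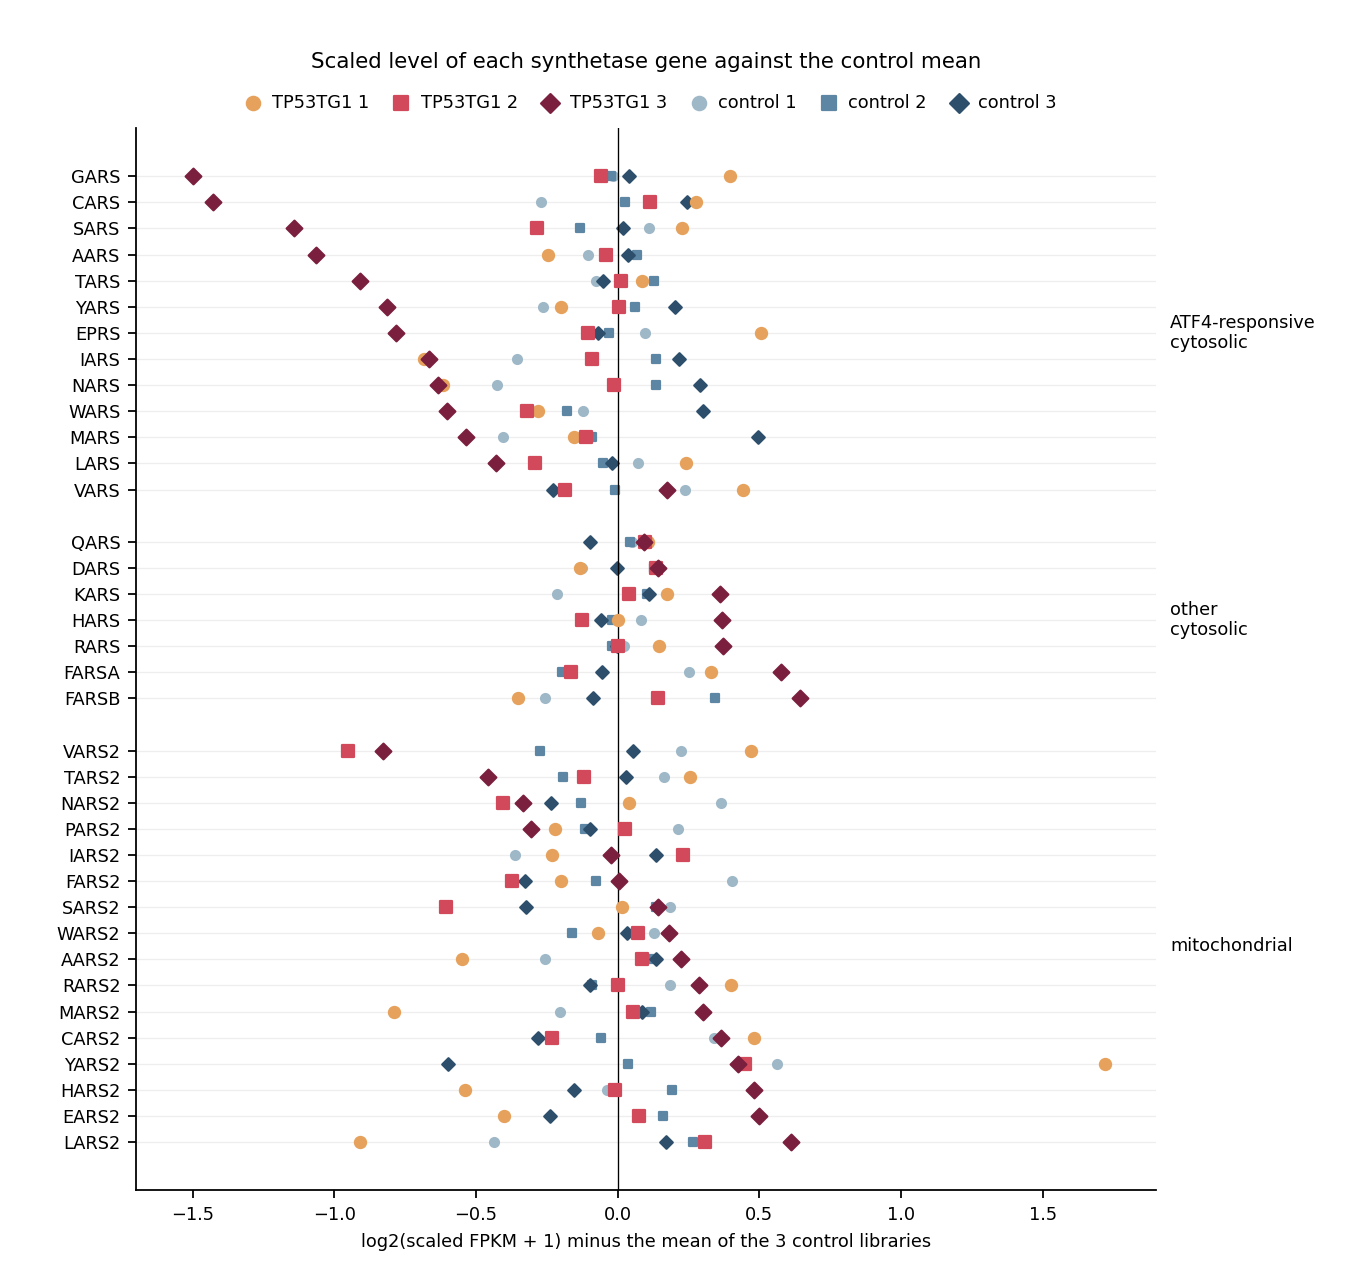
Each row is a synthetase gene, and each point a library, placed by log2(scaled FPKM + 1) minus the mean of the 3 controls (orange to dark red, TP53TG1; pale to dark blue, control). TP53TG1 replicate 3 (dark red diamonds) lies below every control in 12 of 13 ATF4-responsive cytosolic genes and in 0 of 7 other cytosolic genes. The grouping was made from general knowledge with earlier results of these data known.

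Among the ATF4-responsive cytosolic genes, GARS, which charges glycine tRNA (ENSG00000106105, chr7:30594681-30634033), had the highest level of all members. It had 262, 346 and 113 FPKM in the TP53TG1 libraries, against 357, 379 and 395 FPKM in the controls. The groups did not overlap on the deposited scale, and TP53TG1 replicate 3 was by far the lowest. After scaling, TP53TG1 replicate 1 had 426 FPKM, above the controls at 318 to 332 FPKM. The means were 241 ± 118 FPKM in TP53TG1 cells and 377 ± 18.7 FPKM in control cells (SD, n = 3 each), a log2 fold change of -0.79 (relative -0.44; SE 0.389, limma adjusted p 0.748). In 3 against 3 libraries the exact two-sided permutation test cannot go below 0.1, the value it gave for GARS.

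MARS, which charges methionine tRNA and so supplies translation initiation (ENSG00000166986, chr12:57475445-57517569), had 138, 258 and 171 FPKM in the TP53TG1 libraries, against 210, 279 and 418 FPKM in the controls. TP53TG1 replicate 2 lay among the controls. The means were 189 ± 62.1 FPKM with TP53TG1 against 302 ± 106 FPKM with control plasmid (SD, n = 3 each), with a log2 fold change of -0.67 (relative -0.32; SE 0.339, limma adjusted p 0.748; exact permutation p 0.2). Over all its annotated transcripts, MARS shares 519 exonic bases with ARHGAP9 and 355 with DDIT3, both on the opposite strand. Its transcripts ENST00000262027, ENST00000630571 and ENST00000552914 share 62, 0 and 68 bases with DDIT3. No source used here says whether counting kept the strand.

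AARS, the alanine enzyme (ENSG00000090861, chr16:70252295-70289543), had 98.3, 206 and 89.5 FPKM with TP53TG1, against 197, 237 and 231 FPKM in the controls. Replicates 1 and 3 of TP53TG1 lay well below the controls and replicate 2 among them. The log2 fold change was -0.85 (relative -0.50; SE 0.34, limma adjusted p 0.748), from means of 131 ± 64.7 FPKM with TP53TG1 against 221 ± 21.3 FPKM with control plasmid (SD, n = 3 each; exact permutation p 0.2).

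SARS, the serine enzyme (ENSG00000031698, chr1:109213918-109238169), had 133, 169 and 82.8 FPKM in TP53TG1 libraries, against 223, 201 and 223 FPKM in the controls. WARS, the tryptophan enzyme (ENSG00000140105, chr14:100333788-100376805), had 88.8, 157 and 115 FPKM in TP53TG1 libraries, against 180, 185 and 257 FPKM in the controls. Both genes had groups that did not overlap on the deposited scale. For SARS the means were 128 ± 43.5 FPKM with TP53TG1 against 216 ± 12.9 FPKM with control plasmid, and for WARS 120 ± 34.5 FPKM with TP53TG1 against 207 ± 43.1 FPKM with control plasmid (SD, n = 3 each). Both log2 fold changes were -0.80 (relative -0.45 for each), with SEs of 0.301 and 0.293 (limma adjusted p 0.748 for each; exact permutation p 0.1 for each). WARS is also known as an interferon-inducible gene.

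IARS, the isoleucine enzyme (ENSG00000196305, chr9:92210207-92293756), had the most negative log2 fold change of the 36, -0.88 (relative -0.53; SE 0.386, limma adjusted p 0.748). Its values were 52.5, 145 and 86.1 FPKM with TP53TG1, against 120, 180 and 191 FPKM in the controls. Replicate 2 of TP53TG1 lay among the controls, and replicate 1 was the lowest. The means were 94.4 ± 46.6 FPKM in TP53TG1 cells and 164 ± 38.0 FPKM in control cells (SD, n = 3 each; exact permutation p 0.2).

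YARS, the tyrosine enzyme (ENSG00000134684, chr1:32775237-32818153), had 55.8, 117 and 58.5 FPKM in the TP53TG1 libraries, against 97, 130 and 143 FPKM in the controls. LARS, the leucine enzyme that also senses leucine for mTORC1 (ENSG00000133706, chr5:146113038-146182660), had 42.7, 53.3 and 43 FPKM in the TP53TG1 libraries, against 69, 67.3 and 68.6 FPKM in the controls. On the deposited scale the LARS controls were the closest together of these genes and lay above every TP53TG1 library, whereas the YARS groups overlapped. After scaling, TP53TG1 replicate 1 had 69.4 FPKM for LARS, above the controls at 56.5 to 61.7 FPKM. LARS averaged 46.3 ± 6.03 FPKM in TP53TG1 cells and 68.3 ± 0.910 FPKM in control cells (SD, n = 3 each), a log2 fold change of -0.56 (relative -0.21; SE 0.25, limma adjusted p 0.748; exact permutation p 0.1). For YARS the means were 77.1 ± 34.6 FPKM with TP53TG1 against 123 ± 23.6 FPKM with control plasmid (SD, n = 3 each), with a log2 fold change of -0.74 (relative -0.39; SE 0.343, limma adjusted p 0.748; exact permutation p 0.2).

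The other 5 genes of the subset charge cysteine (CARS), asparagine (NARS), threonine (TARS), glutamate and proline (EPRS) and valine (VARS). CARS averaged 80.5 ± 44.1 FPKM in TP53TG1 cells and 123 ± 25.4 FPKM in control cells (SD, n = 3 each), and its TP53TG1 replicate 3 had 37.9 FPKM, the lowest of the 6. NARS averaged 110 ± 55.6 FPKM in TP53TG1 cells and 185 ± 50.4 FPKM in control cells, and TARS 104 ± 42.9 FPKM with TP53TG1 against 159 ± 16.5 FPKM with control plasmid (SD, n = 3 each). In NARS and TARS the groups overlapped through TP53TG1 replicate 2. EPRS had 65.5, 77.6 and 42.8 FPKM with TP53TG1, against 89.5, 87.1 and 84.6 FPKM in the controls, so its groups did not overlap. VARS had 36.6, 42.7 and 49 FPKM with TP53TG1, against 57.6, 51.5 and 44 FPKM in the controls, and a relative log2 fold change of 0.10. It was the 1 gene of the subset above the median of all genes.

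The 7 other cytosolic genes encode the aspartate (DARS), histidine (HARS), lysine (KARS), glutamine (QARS) and arginine (RARS) enzymes and both subunits of the phenylalanine enzyme (FARSA and FARSB). Their log2 fold changes on the deposited values ran from -0.34 to -0.15, and relative to all genes from 0.00 for DARS to 0.20 for FARSA. QARS had 69.3, 125 and 111 FPKM with TP53TG1, against 121, 128 and 116 FPKM in the controls. After scaling, QARS had 113, 112 and 111 FPKM with TP53TG1, against 108, 108 and 97.7 FPKM in the controls. The 3 scaled TP53TG1 values were nearly equal, and the groups did not overlap. KARS had 53.5, 88.3 and 98.5 FPKM with TP53TG1, against 74.1, 98.5 and 98.7 FPKM in the controls, with overlapping groups. DARS averaged 43.2 ± 15.9 FPKM with TP53TG1 against 52.5 ± 6.27 FPKM with control plasmid, RARS 39.5 ± 12.0 FPKM with TP53TG1 against 44.7 ± 0.981 FPKM with control plasmid, and HARS 30.2 ± 10.5 FPKM with TP53TG1 against 36.1 ± 0.762 FPKM with control plasmid (SD, n = 3 each).

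The paired subunits FARSA and FARSB had similar fold changes at unlike levels. FARSB (ENSG00000116120, chr2:222570536-222656337), the lowest of the cytosolic genes, had 5.2, 13.7 and 17.7 FPKM with TP53TG1, against 10.2, 17 and 12.3 FPKM in the controls. Its means were 12.2 ± 6.40 FPKM with TP53TG1 against 13.1 ± 3.49 FPKM with control plasmid (SD, n = 3 each), and its log2 fold change was -0.21 (relative 0.14; SE 0.458, limma adjusted p 0.804; exact permutation p 1). FARSA had 45.5, 58.3 and 87.4 FPKM with TP53TG1, against 78.4, 60.7 and 67 FPKM in the controls. In both subunits TP53TG1 replicate 3 was the highest of the 6 libraries, also after scaling. On scaled values that library lay below all 3 controls in 12 of the 13 ATF4-responsive genes.

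Read by library, the split between the cytosolic subsets lay in TP53TG1 replicate 3. The subsets were chosen with earlier results of these data known, so the split is a description and was not tested. On scaled FPKM, the median deviation of the 13 ATF4-responsive genes from the control mean was 0.08 in TP53TG1 replicate 1, -0.09 in replicate 2 and -0.78 in replicate 3 (log2). The other 7 cytosolic genes had 0.11, 0.04 and 0.37, and the 16 mitochondrial genes -0.14, 0.01 and 0.20. All tested genes stayed between -0.03 and 0.02. In TP53TG1 replicate 3, scaled values were below all 3 controls for 12 of 13 ATF4-responsive genes, 0 of 7 other cytosolic genes and 4 of 16 mitochondrial genes, against 21.9% of all genes. The counts for the ATF4-responsive genes were 5 of 13 in replicate 2, where the background was also 21.9%, and 4 of 13 in replicate 1, where it was 33.8%.

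**Figure D2:**
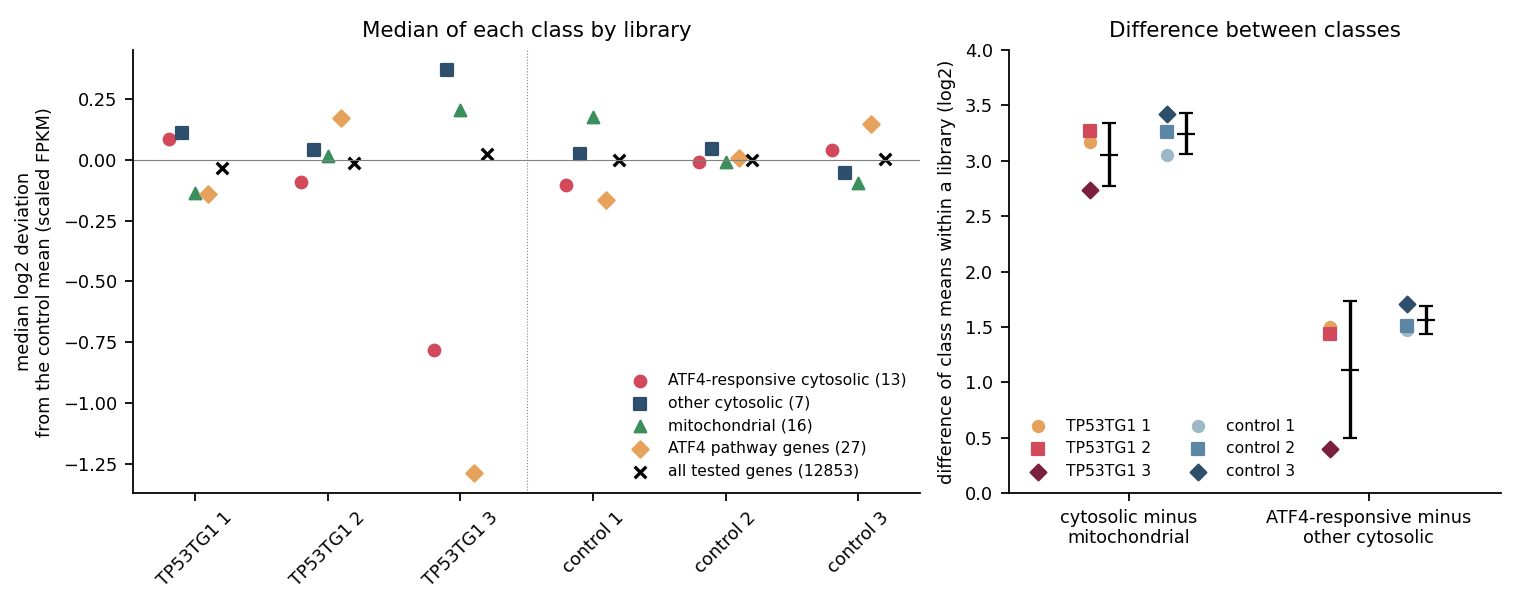
Left, the median over each class of the log2 deviation from the control mean in every library (scaled FPKM); right, the difference between class means within each library, with the mean and SD of 3 libraries beside the points. TP53TG1 replicate 3 has -0.78 for the ATF4-responsive genes and 0.37 for the other cytosolic genes, while the other 2 TP53TG1 libraries lie within 0.17 of the control mean for every class drawn.

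The difference between subsets within a library needs no scaling between libraries. The mean log2 level of the ATF4-responsive genes minus that of the other cytosolic genes was 1.50, 1.44 and 0.40 in the TP53TG1 libraries, against 1.47, 1.51 and 1.71 in the controls. Replicates 1 and 2 of TP53TG1 lay with or next to the controls and replicate 3 more than 1 log2 unit below them. The means were 1.11 ± 0.618 with TP53TG1 and 1.56 ± 0.125 in the controls (SD, n = 3 each). Cytosolic minus mitochondrial genes gave 3.17, 3.27 and 2.73 in the TP53TG1 libraries, against 3.06, 3.26 and 3.42 in the controls, with means of 3.06 ± 0.283 with TP53TG1 and 3.25 ± 0.183 in the controls (SD, n = 3 each). These groups overlapped as well.

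Without TP53TG1 replicate 3, the relative medians became -0.09 for the ATF4-responsive genes, 0.03 for the other cytosolic genes and -0.17 for the mitochondrial genes. With scaling as well they were -0.0011, 0.10 and -0.14, and 7 of 13 ATF4-responsive genes stood under the all-gene median. Without both libraries numbered 1, the same 3 medians were -0.55, 0.15 and 0.05. In the pair numbered 3 alone, TP53TG1 over control, 12 of 13 ATF4-responsive genes and 0 of 7 other cytosolic genes were lower on scaled values, against 48.2% of all genes, with median log2 differences of -0.93 and 0.37 (all genes 0.02). The pair numbered 2 gave -0.12 and 0.01, and the pair numbered 1 gave 0.16 and 0.06.

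The ratios within pairs, taken by replicate number, varied from gene to gene. The data do not settle how the libraries numbered 2 and 3 pair. CARS had TP53TG1 to control ratios of 1.47, 1.06 and 0.308 on scaled FPKM in pairs 1 to 3. For GARS they were 1.33, 0.974 and 0.343, and for SARS 1.08, 0.899 and 0.444. IARS was below 1 in every pair, at 0.793, 0.854 and 0.54, as was AARS at 0.907, 0.927 and 0.463. NARS and WARS were also below 1 in all 3 pairs, with 0.524 and 0.533 in pair 3. Thus 4 of the 13 genes were lower in every pair, against 14.4% of all genes and 0 of the 7 other cytosolic genes, and the size in pairs 1 and 2 was smaller than in pair 3 for each of them.

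The 7 ATF4-responsive genes with the promoter match had scaled ratios of 0.308 (CARS) to 0.549 (TARS) in pair 3. The 3 with a window and no match had 0.444 (SARS), 0.533 (WARS) and 0.604 (EPRS), so the 2 sets overlapped. YARS2, the mitochondrial gene with a match, had 2.62 in the same pair.

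The wider ATF4 pathway was examined in the same libraries, using 29 genes for ATF4, its upstream kinases and its targets, of which 27 were tested. MTHFD2 and PYCR1 were under 1 FPKM. No pathway gene passed the test without a block. With the replicate block 8 of the 27 were called, all lower, against 0.91% of all genes, and with block and scaling none was. The blocked calls leave out each gene's own spread. For CHAC1, 1 of the 8, the SE was 0.336 with the block and 0.880 without it. ATF4 (ENSG00000128272) had 275, 372 and 103 FPKM with TP53TG1, against 496, 455 and 399 FPKM in the controls. On the deposited values all 3 TP53TG1 libraries lay below the controls, as for 13.3% of all genes, with replicate 3 the lowest. After scaling the groups overlapped, with 447, 333 and 103 FPKM with TP53TG1, against 443, 382 and 336 FPKM in the controls. The means were 250 ± 136 FPKM with TP53TG1 against 450 ± 48.3 FPKM with control plasmid (SD, n = 3 each), and the log2 fold change was -1.03 (relative -0.68; SE 0.435). The limma adjusted p was 0.748, or 0.0118 with the replicate block and 0.896 with block and scaling.

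TRIB3, a pseudokinase that ATF4 induces, had 5.23, 15.1 and 3.24 FPKM with TP53TG1, against 15.3, 25 and 51.2 FPKM in the controls. Its groups did not overlap before or after scaling, and its log2 fold change was -1.90 (relative -1.55; SE 0.581, limma adjusted p 0.748, or 3.93e-06 with the replicate block). CEBPB, a partner of ATF4 at the element, averaged 56.8 ± 21.8 FPKM in TP53TG1 cells and 105 ± 11.0 FPKM in control cells (SD, n = 3 each). SHMT2, which makes glycine and one-carbon units in mitochondria, averaged 197 ± 71.5 FPKM in TP53TG1 cells and 313 ± 27.5 FPKM in control cells (SD, n = 3 each). The limma adjusted p of both was 0.748.

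In TP53TG1 replicate 3, scaled values lay below all 3 controls for 18 of 27 pathway genes, against the 21.9% of all genes given above. The pathway's median deviation from the control mean was -0.14, 0.17 and -1.29 in TP53TG1 replicates 1 to 3 (log2, scaled FPKM). ASNS, the asparagine synthetase that supplies the substrate of NARS, had 215, 236 and 102 FPKM with TP53TG1, against 317, 274 and 288 FPKM in the controls. CHAC1, a glutathione-degrading enzyme, had 22, 30.3 and 1.12 FPKM with TP53TG1, against 24.6, 34.7 and 22.3 FPKM in the controls. Both were chosen after their values were seen, and both have a window with the promoter match, as do ATF3 and SLC3A2, which makes 4 of the 23 pathway genes with a window. The stretches with the match are shown for comparison with those of the synthetases.
ASNS, chr7:97872449-97872496, minus strand: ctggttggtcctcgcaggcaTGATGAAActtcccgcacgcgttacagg
CHAC1, chr15:40953242-40953289, plus strand: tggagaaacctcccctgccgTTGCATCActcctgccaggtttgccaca
None of the 4 kinases that phosphorylate eIF2 (EIF2AK1 to EIF2AK4) was below all 3 controls in that library. EIF2AK4, which senses uncharged tRNA, had 15.1, 17.4 and 16.4 FPKM with TP53TG1, against 13.2, 17.9 and 15.1 FPKM in the controls. These groups overlapped, with a log2 fold change of 0.08 (relative 0.43; SE 0.294, limma adjusted p 0.873), although after scaling all 3 TP53TG1 libraries lay above the controls. In bulk RNA, fewer cells using a pathway and less of its RNA per cell cannot be told apart.

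**Figure D3:**
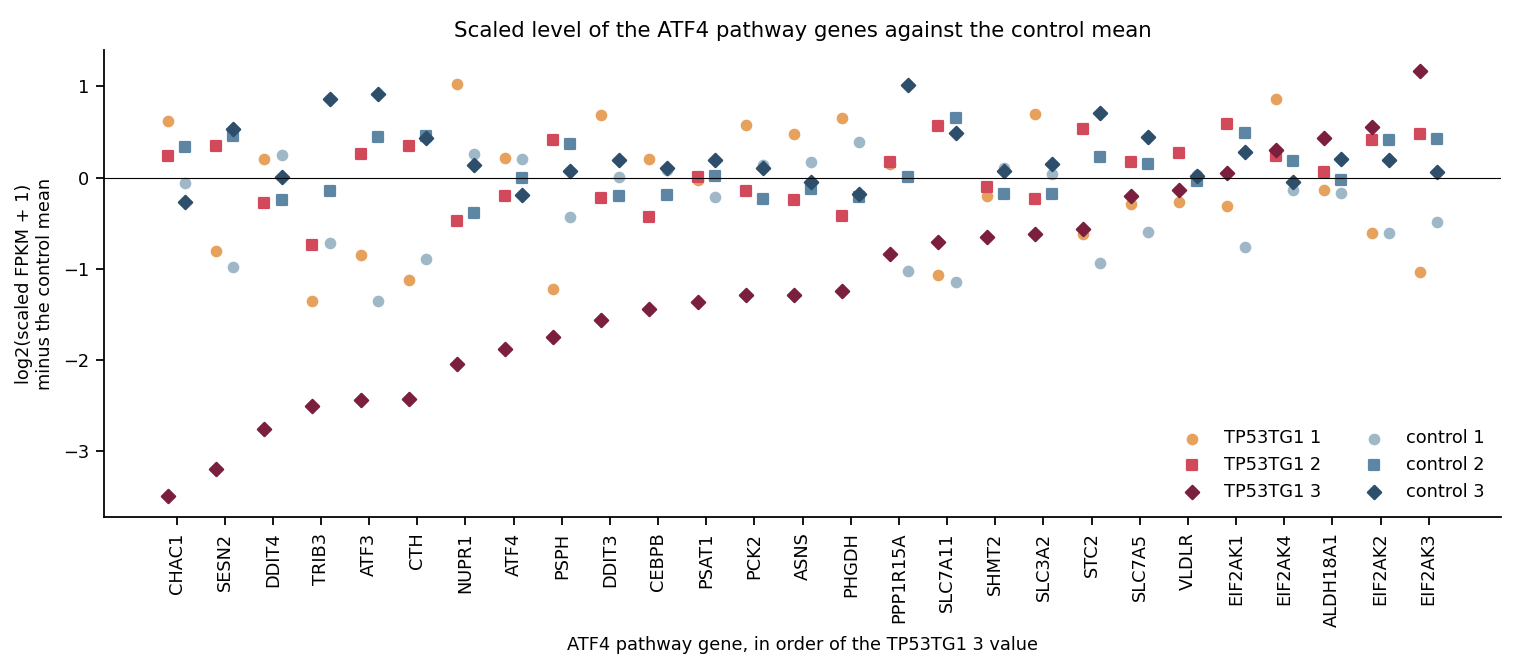
Each column is an ATF4 pathway gene and each point a library, by log2(scaled FPKM + 1) minus the mean of the 3 controls, TP53TG1 left and control right within a column. In TP53TG1 replicate 3, 18 of 27 genes lie below all 3 controls, CHAC1 at the far left.

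The mitochondrial genes as a set had lower levels than the cytosolic genes. Their mean FPKM over the 6 libraries ran from 2.76 (PARS2, proline) to 33.9 (IARS2, isoleucine), with a median of 8.94, against 12.7 to 309 and a median of 101 for the cytosolic genes. FPKM is per length, but these sums include short and noncoding transcripts, in shares that differ between genes. Coding transcripts of at least 1000 nt held 45.1 to 82.6% of the WARS value and 70.7 to 100% of the WARS2 value over the 6 libraries. The ratios below are therefore not of coding RNA alone. For 13 amino acids with 1 gene in each compartment, the cytosolic gene was the higher in all 13, by 2.76 times for histidine to 58.0 times for tryptophan, with a median of 7.33 times. The relative log2 fold change was lower for the cytosolic partner in 11 of the 13 pairs, the exceptions being histidine and valine. Without TP53TG1 replicate 3 it was lower in 6 of the 13, with or without scaling.

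**Figure D4:**
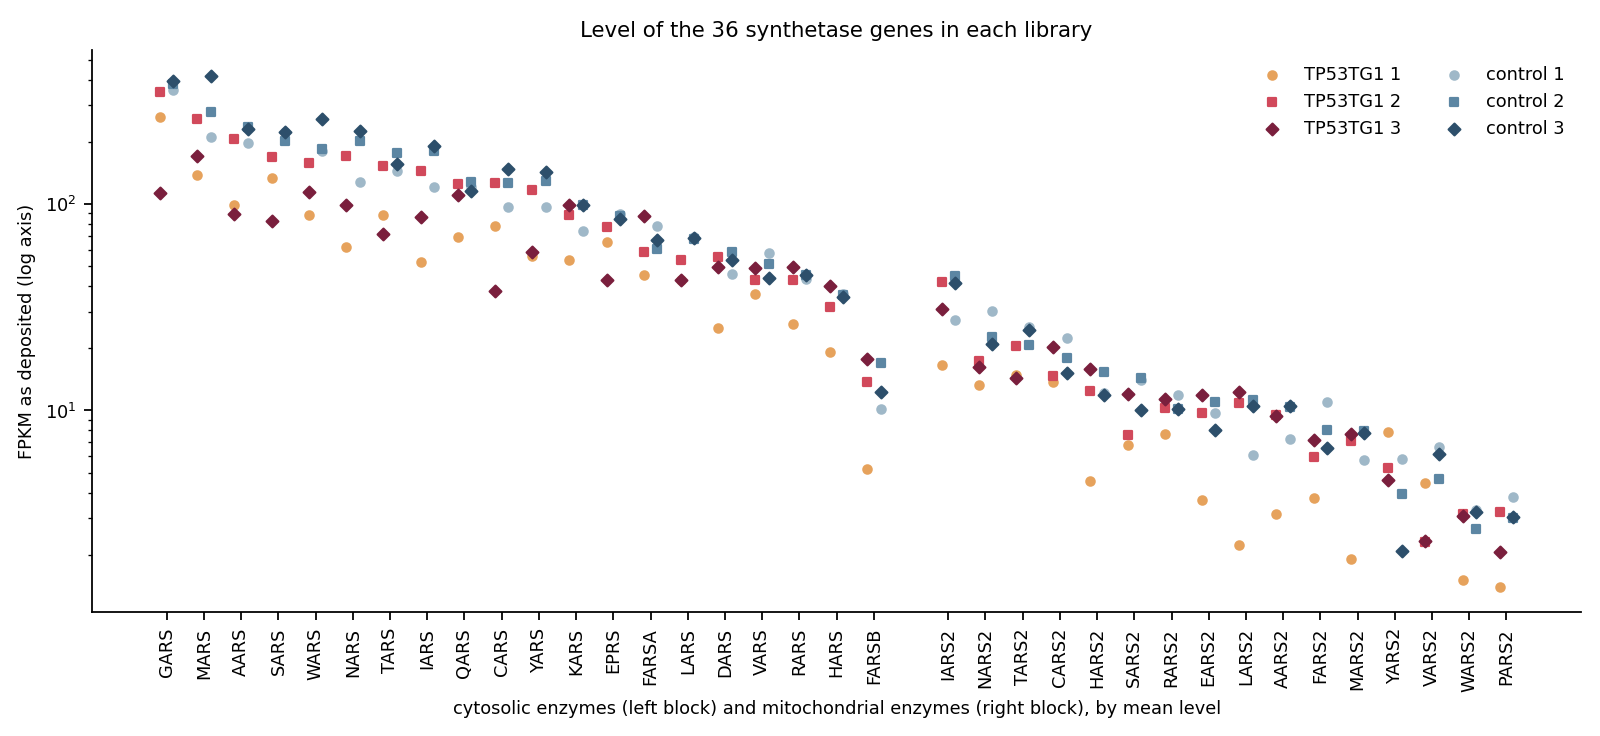
FPKM as deposited (log axis) of the 36 genes, each with the 3 TP53TG1 libraries on the left and the 3 controls on the right. The cytosolic genes (left block) span mean levels of 12.7 to 309 FPKM and the mitochondrial genes (right block) 2.76 to 33.9 FPKM.

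IARS2 (ENSG00000067704, chr1:220094102-220148041) had 16.6, 41.9 and 31.1 FPKM with TP53TG1, against 27.4, 44.5 and 41.6 FPKM in the controls. The groups overlapped, with means of 29.8 ± 12.7 FPKM with TP53TG1 against 37.9 ± 9.18 FPKM with control plasmid (SD, n = 3 each), and the log2 fold change was -0.40 (relative -0.05; SE 0.388, limma adjusted p 0.748; exact permutation p 0.6). Its scaled ratios in pairs 1 to 3 were 1.1, 1 and 0.892, so it differed little between partners in any pair.

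For NARS2, TARS2 and VARS2, the asparagine, threonine and valine enzymes, the groups did not overlap on the deposited scale but did after scaling. NARS2 (ENSG00000137513, chr11:78435961-78574874) had 13.2, 17.3 and 16.3 FPKM with TP53TG1, against 30.4, 22.6 and 20.9 FPKM in the controls. This made means of 15.6 ± 2.13 FPKM with TP53TG1 against 24.6 ± 5.07 FPKM with control plasmid (SD, n = 3 each), and a log2 fold change of -0.62 (relative -0.27; SE 0.302, limma adjusted p 0.748; exact permutation p 0.1). Its scaled ratio was 0.791, 0.817 and 0.931 in pairs 1 to 3, lowest in pair 1, whereas its cytosolic partner NARS was lowest in pair 3. The difference between the 2 genes was not tested. TARS2 (ENSG00000143374, chr1:150487364-150507609) had 14.9, 20.6 and 14.3 FPKM with TP53TG1, against 25.3, 20.8 and 24.4 FPKM in the controls. The log2 fold change of TARS2 was -0.49 (relative -0.14; SE 0.297, limma adjusted p 0.748), from means of 16.6 ± 3.47 FPKM with TP53TG1 against 23.5 ± 2.41 FPKM with control plasmid (SD, n = 3 each; exact permutation p 0.1).

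VARS2 (ENSG00000137411, chr6:30908242-30926459) had 4.45, 2.31 and 2.33 FPKM with TP53TG1, against 6.63, 4.65 and 6.13 FPKM in the controls. The log2 fold change of -0.79 (relative -0.44; SE 0.362, limma adjusted p 0.748) was the most negative of the mitochondrial genes, with means of 3.03 ± 1.23 FPKM with TP53TG1 against 5.80 ± 1.03 FPKM with control plasmid (SD, n = 3 each; exact permutation p 0.1). VARS2 shares 1858 exonic bases with GTF2H4 on the same strand, so its reads and those of GTF2H4 could be split between the genes. In pair 1 its scaled ratio was 1.22, and in pairs 2 and 3 it was 0.529 and 0.454.

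SARS2 (ENSG00000104835, chr19:38915266-38930896), the serine enzyme, had 6.77, 7.59 and 12 FPKM with TP53TG1, against 14, 14.3 and 10.1 FPKM in the controls. FARS2 (ENSG00000145982, chr6:5261044-5829192), a single-chain phenylalanine enzyme, had 3.77, 5.96 and 7.19 FPKM with TP53TG1, against 11, 8.07 and 6.57 FPKM in the controls. In both genes the third TP53TG1 library lay among the controls. The log2 fold changes were -0.52 (relative -0.17; SE 0.349) for SARS2 and -0.53 (relative -0.18; SE 0.37) for FARS2, each with a limma adjusted p of 0.748 and an exact permutation p of 0.2. SARS2 shares 1492 exonic bases with AC011455.2, an annotated gene on the same strand.

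YARS2 (ENSG00000139131, chr12:32727490-32755902), the tyrosine enzyme, was the 1 synthetase with a positive log2 fold change on the deposited values. It had 7.87, 5.27 and 4.59 FPKM with TP53TG1, against 5.79, 3.92 and 2.09 FPKM in the controls. The groups overlapped, although TP53TG1 was the higher library in each numbered pair, by scaled ratios of 2.47, 1.43 and 2.62. The means were 5.91 ± 1.73 FPKM with TP53TG1 against 3.93 ± 1.85 FPKM with control plasmid (SD, n = 3 each), for a log2 fold change of 0.53 (relative 0.88; SE 0.406, limma adjusted p 0.748; exact permutation p 0.3). In TP53TG1 replicate 1, 60.1% of the YARS2 value came from ENST00000551673, a processed transcript of 489 nt that held 0 to 2.7% elsewhere. Counting only coding transcripts of at least 1000 nt, the log2 fold change was 0.17 (relative 0.53).

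PARS2 (ENSG00000162396, chr1:54756898-54764514) had 1.4, 3.22 and 2.07 FPKM with TP53TG1, against 3.82, 3 and 3.05 FPKM in the controls. The groups overlapped, with means of 2.23 ± 0.92 FPKM with TP53TG1 against 3.29 ± 0.46 FPKM with control plasmid (SD, n = 3 each) and a log2 fold change of -0.44 (relative -0.09; SE 0.348, limma adjusted p 0.748; exact permutation p 0.3). The remaining 8 mitochondrial genes (CARS2, HARS2, RARS2, EARS2, LARS2, AARS2, MARS2 and WARS2) had relative log2 fold changes from -0.11 for MARS2 to 0.21 for RARS2. EARS2 makes the misacylated tRNA that the GatCAB amidotransferase turns into glutaminyl-tRNA. LARS2 had 2.24, 10.9 and 12.2 FPKM with TP53TG1, against 6.07, 11.3 and 10.5 FPKM in the controls, its lowest value being in TP53TG1 replicate 1. Scaled values in TP53TG1 replicate 1 lay below all 3 controls for LARS2 and 5 other mitochondrial genes (AARS2, EARS2, HARS2, MARS2 and PARS2), 6 of 16, near the 33.8% of all genes. HARS and HARS2 are neighbours on chromosome 5 that are transcribed away from each other, and share 437 exonic bases on opposite strands. Their scaled ratios were 0.945, 0.927 and 1.36 for HARS and 0.679, 0.859 and 1.61 for HARS2 in pairs 1 to 3, each highest in pair 3.

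Genes that work beside the synthetases did not pass the test either, where 1 gene of 12853 (0.00778%) was called. Of 8 scaffold and tRNA helper genes, 0 were called, with 6 below and 2 above the median of all genes and a median relative log2 fold change of -0.13. On the deposited values the groups did not overlap, TP53TG1 being lower, for 4 of the 8, against 13.3% of all genes. Among them were the scaffolds AIMP1, AIMP2 and EEF1E1, which hold the multi-synthetase complex together. AIMP2 averaged 62.8 ± 4.09 FPKM in TP53TG1 cells and 91.1 ± 15.0 FPKM in control cells, and EEF1E1 39.5 ± 4.01 FPKM with TP53TG1 against 56.3 ± 10.4 FPKM with control plasmid (SD, n = 3 each). AIMP1 averaged 21.2 ± 1.53 FPKM with TP53TG1 against 30.0 ± 5.56 FPKM with control plasmid, and DTD1, which removes D-amino acids from tRNA, 50.2 ± 8.21 FPKM with TP53TG1 against 79.1 ± 23.8 FPKM with control plasmid (SD, n = 3 each). Their relative log2 fold changes were -0.13 for AIMP1 to -0.27 for DTD1, and all 4 groups overlapped after scaling.

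Of the 5 cytosolic elongation factors, 0 were called (0.00778% of all genes), and the median relative log2 fold change was -0.02. EEF1B2, the nucleotide exchange subunit of elongation factor 1, averaged 327 ± 28.0 FPKM in TP53TG1 cells and 485 ± 86.3 FPKM in control cells (SD, n = 3 each), a log2 fold change of -0.56 (relative -0.21; SE 0.236, limma adjusted p 0.748). EEF1A1, which carries charged tRNA to the ribosome, averaged 2828 ± 750 FPKM in TP53TG1 cells and 3768 ± 543 FPKM in control cells, with overlapping groups. Of the 14 mitochondrial translation genes, 0 were called (0.00778% of all genes). Of these genes, 8 were below and 6 above the median of all genes, and their median relative log2 fold change was -0.03. The 4 with the smallest p were TSFM, TUFM, MTIF2 and MRRF. TUFM, the mitochondrial elongation factor that carries charged tRNA, averaged 95.5 ± 12.3 FPKM in TP53TG1 cells and 130 ± 23.8 FPKM in control cells, and its exchange factor TSFM 31.5 ± 4.43 FPKM with TP53TG1 against 43.6 ± 4.54 FPKM with control plasmid (SD, n = 3 each).

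The make-up of several genes by transcript set the libraries numbered 1 apart under both plasmids. The coding transcript ENST00000366923 of EPRS took 33.9% of the gene's FPKM in TP53TG1 replicate 1 and 46.3% in control replicate 1, against 77.6 to 85.6% in the other 4 libraries. For LARS, ENST00000394434 took 18.6% in TP53TG1 replicate 1 and 25.1% in control replicate 1, and 68.9 to 73.2% in the others. The pattern ran the other way in NARS, where ENST00000256854 took 98.9% in TP53TG1 replicate 1 and 92.9% in control replicate 1, and 54.4 to 61.7% elsewhere. MARS had a 216-nt coding transcript, ENST00000630571, listed at 0 in both libraries numbered 1 and at 26.0 to 47.7% in the others. Mean transcript length was shorter in both libraries numbered 1 than in the other 4 for 10 of 36 members and longer for 7. The share of all genes with either pattern was not counted, so these counts do not set the synthetases apart.

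**Figure D5:**
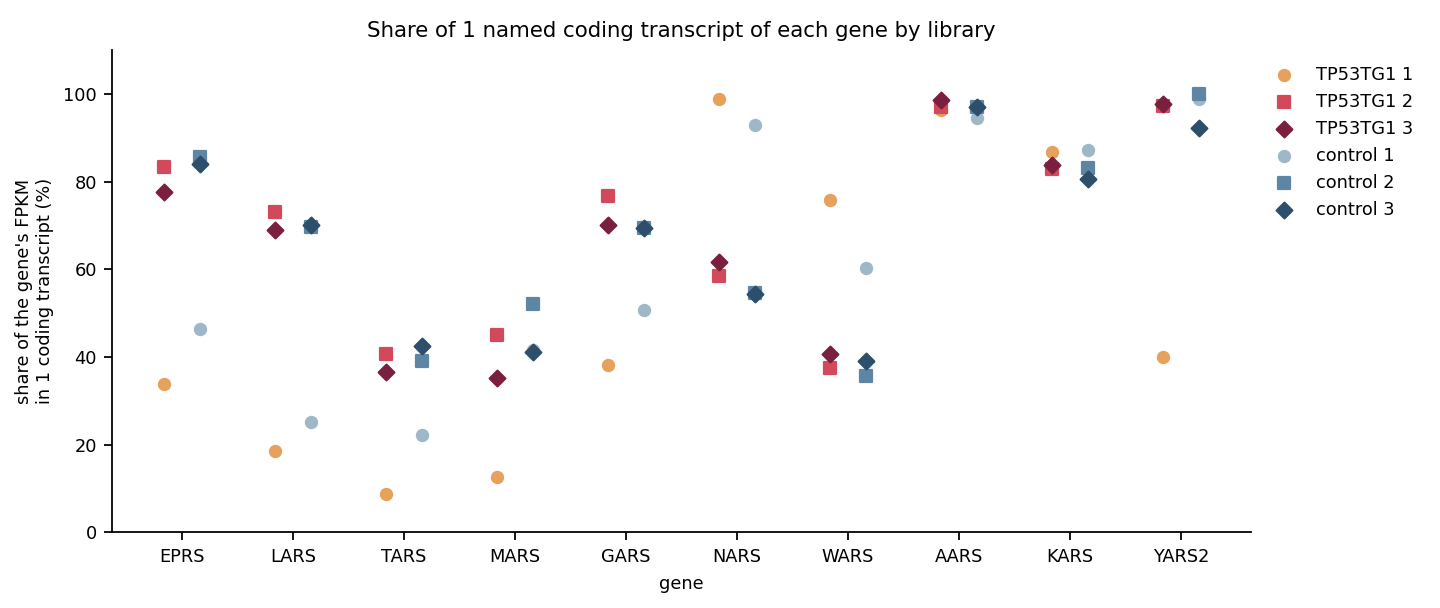
The share of each gene's FPKM in 1 named coding transcript, by library (TP53TG1 left, control right); the genes were chosen after the values were seen. Circles, the libraries numbered 1, stand apart from squares and diamonds in EPRS, LARS, TARS, GARS, NARS and WARS under both plasmids. In KARS they lie at 86.7 and 87.2%, above the 80.6 to 83.8% of the other 4 libraries, and in AARS at 96.3 and 94.5%, below their 97.0 to 98.6%.

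KARS, whose transcripts encode a cytosolic and a mitochondrial form of the lysine enzyme, varied less in make-up. The transcript ENST00000302445, with 597 codons, took 82.9 to 86.7% of its FPKM in the TP53TG1 libraries and 80.6 to 87.2% in the controls. ENST00000319410, with 625 codons, took 11.0 to 13.6% in the TP53TG1 libraries and 8.9 to 14.1% in the controls. Neither share separated the plasmids, but the share of ENST00000302445 was higher in both libraries numbered 1 than in the other 4. Transcripts not annotated as protein coding held 54.4 to 91.0% of the TARS value and 22.7 to 61.8% of the GARS value over the 6 libraries, highest in TP53TG1 replicate 1 for both, so the summed FPKM of these genes is not only coding RNA. Counting coding transcripts of at least 1000 nt alone, all 13 ATF4-responsive genes stood under the all-gene median, with a median relative log2 fold change of -0.40, against 0.04 for the other cytosolic genes and -0.06 for the mitochondrial genes. In the GENCODE 29 annotation, 20 of 36 members share exonic bases with another gene, and their values carry that uncertainty.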

How the data were processed

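Total RNA was treated with DNase I and the libraries were TruSeq RNA (Illumina), per the labels' protocols. The submitters' processing notes name HISAT2, StringTie and GRCh38.p10; no source used here gives versions, the annotation release, the strand setting or read counts. The authors deposited FPKM values per transcript, 1 table per library; the unit follows from the table headers and values. Transcripts were summed per gene ID, and blank gene names were filled from the other libraries by transcript ID. Of the listed transcripts, 99.85% matched GENCODE 29, used for coordinates and transcript types.

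The test was limma 3.58.1 (R 4.3.3; lmFit, eBayes with trend) on log2(FPKM + 1), all 6 libraries, TP53TG1 minus control, for genes averaging at least 1 FPKM, adjusted by Benjamini-Hochberg over 12853 genes, threshold 0.05. It was tested on simulated data. Fold changes on this scale understate those of low genes. Replicate numbers were treated as pairing the samples from the data, not from the labels. Same-numbered libraries deviated from their group means together (correlations 0.710, 0.562 and 0.289, the limit being 0.1). However, control 3 correlated more with TP53TG1 2 (0.400), and TP53TG1 3 more with control 2 (0.302). Deviations within a group of 3 cancel out, so libraries numbered 1 that stand apart make those numbered 2 and 3 correlate. The check therefore does not settle how the libraries numbered 2 and 3 pair. The blocked fit leaves 2 residual degrees of freedom, and limma's prior degrees of freedom were infinite. Its SEs therefore come from the trend over genes of similar level, not from a gene's own spread. Depth was read from genes with 1 transcript of 300 to 600 nt, as the 5th percentile of FPKM times length in kb among values of at least 0.05 FPKM; it ignores effective length and is approximate.

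The members and lists, among them which cytosolic genes count as ATF4-responsive, were chosen with earlier results of these data known, from general knowledge. Members given in full were, per compartment, the 6 with the smallest p, the 2 with the highest and the 1 with the lowest mean FPKM; from other lists, up to 4 genes with the smallest p. Alternatives changed the scaling, pseudocount (0.1), filter (5 FPKM or none), block, transcripts summed and libraries kept.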

Additional observations from a re-analysis of the deposited data

How the results depend on the processing

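No synthetase was called under any of the 19 alternatives. The number of genes called overall was 1 in the reported fit. It was 2 with a filter of 5 FPKM, 2 with median-of-ratios scaling, 2 with that scaling and without TP53TG1 replicate 1, and 0 with that scaling and without TP53TG1 replicate 3. It was also 0 with no filter, and 0 for coding transcripts of at least 1000 nt, with or without scaling. With the replicate block 192 genes were called, and 6 with the replicate block and scaling together; the block changed no call of a synthetase. Leaving out 1 library at a time gave 0 to 1 called genes. The relative median of the cytosolic genes (reported -0.26) was -0.37 to -0.06 when a library was left out, and 0.016 with scaling and without TP53TG1 replicate 3. That of the mitochondrial genes (reported -0.06) was -0.17 to 0.11 when a library was left out, the highest without TP53TG1 replicate 1, was 0.11 with scaling and without that library, and was -0.28 with no filter. Cytosolic minus mitochondrial (reported -0.21) was -0.47 to 0.11 when a library was left out, the highest without TP53TG1 replicate 3, and 0.16 with scaling and without that library. ATF4-responsive minus other cytosolic genes (reported -0.52) stayed negative throughout, from -0.70 to -0.10, with the values nearest 0 lacking TP53TG1 replicate 3; this difference, both scaled fits that leave out a library and both coding-transcript fits were added after seeing the data. Why these values moved was not tested.

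With 3 libraries a group, exact tests cannot go below 0.1. The lowest members rest on about 36 to 126 fragments a library, and counting error adds to the spread there.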
